A study of Drosophila melanogaster with 24 samples.

Results

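The genes described here are 10 antioxidant genes of the fly: the superoxide dismutases *Sod1*, *Sod2*, and *Sod3*, catalase (*Cat*), thioredoxin reductase (*Trxr-1*), thioredoxin (*Trx-2*), the catalytic and modifier subunits of glutamate-cysteine ligase (*Gclc* and *Gclm*), and the Nrf2 axis, consisting of *cnc* and *Keap1*. They were chosen by name, with earlier results of these data known, and matched on the gene symbols of the deposited tables. All 10 were found among the 13700 annotated genes listed in any library, and all 10 were among the 10479 genes abundant enough to be tested.

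mRNA was measured by RNA-Seq in heads of male *Drosophila melanogaster* at days 3, 10, 20, and 30 post eclosion, in AD and WT flies, which gave 8 groups of 3 replicates and a total of 24 libraries. AD flies expressed a human Aβ42 transgene under UAS control in neurons, driven by elav-GAL4, and WT flies were w1118 flies crossed to the same driver line, so that both genotypes carried GAL4 in neurons. The sample labels describe the AD genotype as transgenic for human APP instead of Aβ42, and this could not be settled from the files. Each library pooled many heads, which hold muscle, fat, glia, and eye tissue as well as the neurons in which the driver acts. The labels do not say whether replicates came from separate cultures, so the p-values measure the spread between these libraries only, which may be technical.

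Superoxide dismutases turn superoxide into hydrogen peroxide, Sod1 mainly in the cytosol, Sod2 in mitochondria, and Sod3 outside the cell, and catalase breaks hydrogen peroxide down in peroxisomes. Peroxidases of the thioredoxin and glutathione systems do the same elsewhere. Flies lack a true glutathione reductase, and thioredoxin reductase with thioredoxin keeps their glutathione reduced. The CncC isoform of *cnc* is the fly ortholog of Nrf2, the transcription factor that turns on many antioxidant and detoxification genes, and Keap1 holds it back and directs its degradation. The other isoforms of *cnc* pattern the embryonic head, and the gene-level values below pool all of them.

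Expected counts, the fragments assigned to a gene by RSEM, summed to between 12884945 and 26731357 per library, with a median of 14887458. In 6 libraries, replicate 1 of days 3, 10, and 20 in both genotypes, the lengths of the gene models added by the authors differed from those of the other 18, and the totals were higher (21168175 to 26731357, against 12884945 to 16237611). These are called the smaller and the larger library set below, by their number of libraries, and all day 30 libraries were in the larger set. The library labelled AD day 30 replicate 3 stood apart from its group in *w*, the eye colour gene mutated in the w1118 background. In CPM, the count scaled by the normalised library total, *w* was at 89.7 CPM in that library, 180 to 256 CPM in the other 11 AD libraries, and 64.1 to 107 CPM in the WT libraries, so results that rest on that library are given with and without it. WT day 3 replicate 2 had 38.3 CPM of the yolk protein gene *Yp1*, against 0.521 to 15.8 CPM in the other 23 libraries. All 5 neuronal, all 5 glial, and all 6 photoreceptor markers were detected, with summed levels of 1460 to 3030 CPM, 930 to 2470 CPM, and 50000 to 74600 CPM. Fewer cells of a type and less RNA per cell cannot be told apart in such samples.

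Per length, *Sod1* was the most abundant of the 10 mRNAs and *Keap1* the least. In FPKM, which corrects for gene length and library size, the median over the 24 libraries was 841 FPKM for *Sod1*, 414 FPKM for *Trx-2*, 196 FPKM for *Sod2*, 160 FPKM for *Cat*, 156 FPKM for *Trxr-1*, 98.4 FPKM for *Gclm*, 67.8 FPKM for *Sod3*, 51.5 FPKM for *cnc*, 23.7 FPKM for *Gclc*, and 7.13 FPKM for *Keap1*. The order was not equally sharp everywhere. *Sod1* lay above *Trx-2*, *Trx-2* above *Sod2*, *Trxr-1* above *Gclm*, and *Gclc* above *Keap1* in 24 of 24 libraries. *Sod2* lay above *Cat* in 18 libraries and *Cat* above *Trxr-1* in 15, so these 3 genes were not separated in every library. The modifier subunit *Gclm* was a median of 4.23 times as abundant per length as the catalytic subunit *Gclc* (range 1.77 to 7.88), and *cnc* was 6.72 times as abundant as *Keap1* (range 3.19 to 11.9). Across libraries *Trx-2* and *Sod1* varied least, with a highest-to-lowest FPKM ratio of 1.32 and 1.36, and *Sod3* varied most, with 3.35.

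**Figure D1:**
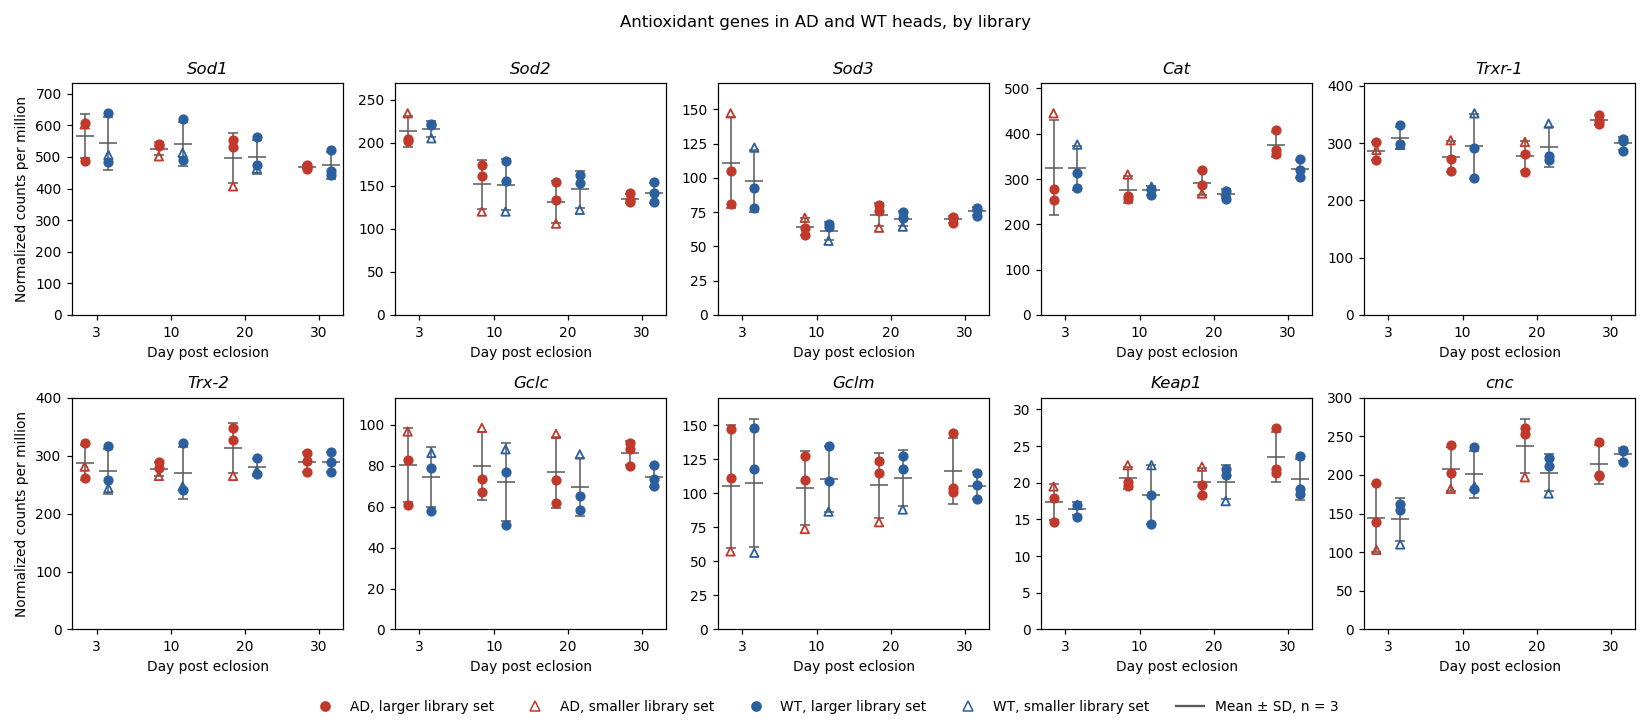
Normalised level of the 10 genes in CPM (vertical axis, from 0) by day post eclosion (horizontal axis), with AD libraries in red left of WT libraries in blue, open triangles for the smaller library set, filled circles for the larger set, and the mean ± SD of 3 libraries in grey. The means of *Sod2* and *Sod3* were lower and that of *cnc* higher after day 3 in both genotypes. *Sod3* in WT heads at day 30 and *cnc* in AD heads at day 10 overlapped with day 3. AD and WT points of the same day overlapped for most genes.

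The first question was how the genes changed with age within each genotype. The mitochondrial superoxide dismutase *Sod2* fell and *cnc* rose after day 3 in both genotypes. The extracellular *Sod3* passed the test, as lower, in AD heads only, although its means were lower in WT heads too. No other gene of the 10 passed the test on any day. At day 30 against day 3, 3 of the 10 genes passed in AD heads (*Sod2* and *Sod3* lower, *cnc* higher), where 21.9% of all tested genes passed, and 2 of the 10 passed in WT heads (*Sod2* lower, *cnc* higher), where 11.2% of all genes passed. At day 20 it was 3 of 10 in AD heads (15.4% of all genes) and 1 of 10 in WT heads (6.39%), and at day 10 it was 1 of 10 in AD heads (2.89%) and 0 of 10 in WT heads (1.08%). Days 10 and 20 together gave 4 calls in AD heads (9.13% over all genes and both days) and 1 in WT heads (3.74%). The test was edgeR's quasi-likelihood test with Benjamini-Hochberg adjustment over all 10479 genes (FDR under 0.05). The fold changes were modest, and none of the 10 genes also reached an absolute log2 fold change over 1, which 7.68% of all genes did in AD heads and 4.49% in WT heads at day 30. The median log2 fold change of the 10 genes at day 30 was 0.13 in AD heads and -0.02 in WT heads, against 0.01 and -0.01 over all genes. The comparisons within a genotype share the 3 day 3 libraries. For the 0 of 10 in WT heads at day 10, 3 genes had an unadjusted p under 0.05, DESeq2 called 2 genes, and limma called 1.

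*Sod2*, the manganese superoxide dismutase of mitochondria, was lower after day 3 in both genotypes. In AD heads it was at 234, 202, and 204 CPM at day 3, at 120, 174, and 161 CPM at day 10, at 106, 133, and 154 CPM at day 20, and at 133, 141, and 131 CPM at day 30. Its level in WT heads was 205, 220, and 222 CPM at day 3, 120, 155, and 179 CPM at day 10, 122, 163, and 153 CPM at day 20, and 131, 154, and 141 CPM at day 30. In both genotypes every library of days 10, 20, and 30 lay below every library of day 3, and the drop was already present at day 10.

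The log2 fold change of *Sod2* in AD heads was -0.71 ± 0.16 (SE) at day 20 (edgeR FDR 0.00673) and -0.66 ± 0.16 at day 30 (FDR 0.00699). The change in WT heads was -0.56 ± 0.16 at day 20 (FDR 0.0455) and -0.60 ± 0.16 at day 30 (FDR 0.022). At day 10 it was -0.49 in AD heads (FDR 0.104) and -0.51 in WT heads (FDR 0.123). Same-numbered libraries of days 10 and 3 deviated together, and with the replicate number as a block the day 10 change passed in both genotypes (edgeR FDR 0.0261 in AD heads and 0.037 in WT heads). Within the larger library set alone the day 10 change was smaller and did not pass, at -0.28 in AD heads (FDR 0.302) and -0.39 in WT heads (FDR 0.177). The day 30 change in that set was -0.61 in AD heads (FDR 0.000521) and -0.64 in WT heads (FDR 0.000862). Without the library labelled AD day 30 replicate 3 the day 30 change in AD heads was -0.66 (FDR 0.0238). The calls in AD heads held without any 1 of the 6 libraries compared. The WT call at day 20 was lost without any 1 of the 6 (FDR 0.0674 to 0.198), and the WT call at day 30 was lost without WT day 30 replicate 1 (FDR 0.101), WT day 30 replicate 3 (FDR 0.0805), or WT day 3 replicate 2 (FDR 0.0622).

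*Sod3*, the extracellular copper/zinc enzyme, was also highest at day 3. In AD heads it was at 147, 105, and 81.2 CPM at day 3, at 70.8, 63.6, and 58.4 CPM at day 10, at 63.6, 80.4, and 75.6 CPM at day 20, and at 70.7, 66.9, and 71.3 CPM at day 30. Its level in WT heads was 122, 92.5, and 77.8 CPM at day 3, 54.1, 64.0, and 66.4 CPM at day 10, 64.4, 75.4, and 70.5 CPM at day 20, and 72.2, 76.7, and 78.2 CPM at day 30. All later AD libraries lay below all day 3 AD libraries, but the day 3 libraries were far apart in both genotypes, and at day 30 the WT libraries overlapped with day 3.

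In AD heads the log2 fold change of *Sod3* was -0.79 ± 0.18 at day 10 (edgeR FDR 0.0217), -0.60 ± 0.18 at day 20 (FDR 0.0257), and -0.68 ± 0.18 at day 30 (FDR 0.0106). The WT change was -0.67 at day 10 (FDR 0.0755, or 0.0468 with the replicate block), -0.48 at day 20 (FDR 0.11), and -0.37 at day 30 (FDR 0.193). Much of the AD value rested on AD day 3 replicate 1, a library of the smaller set. Without it the change was -0.55 at day 10 (FDR 0.16), -0.36 at day 20 (FDR 0.167), and -0.44 at day 30 (FDR 0.0615). Within the larger set it was -0.62 at day 10 (FDR 0.0706), -0.28 at day 20 (FDR 0.145), and -0.45 at day 30 (FDR 0.00806). The day 10 call was also lost without AD day 3 replicate 2 or any 1 of the AD day 10 libraries (FDR 0.0514 to 0.0901) and held without AD day 3 replicate 3 (FDR 0.00164), and the day 20 call was lost without AD day 20 replicate 1 (FDR 0.0879) or replicate 3 (FDR 0.0568). Without the library labelled AD day 30 replicate 3 the day 30 change was -0.71 (FDR 0.023).

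The summed level of 5 muscle markers had the same order as *Sod3* across the day 3 libraries of each genotype, and so did that of 5 glial markers. On later days the orders often differed. The muscle sum had the order of *Sod3* in AD heads at day 10 only. It had the reverse order in WT heads at day 10 and in both genotypes at day 20. The glial sum had the order of *Sod3* in AD heads at days 10 and 30, and the reverse order in WT heads at day 20. Replicate 1 of each genotype at day 3 came from the smaller library set. The muscle sum was 1240, 1440, and 1710 CPM in AD day 30 replicates 1, 2, and 3, against 7020, 5510, and 2240 CPM in the AD day 3 replicates. It was 1560, 1490, and 1850 CPM in the WT day 30 replicates, against 6210, 6120, and 2590 CPM in the WT day 3 replicates. In both genotypes the day 3 library with the least *Sod3* was also the one with the least muscle and glial marker RNA. In day 3 replicates 1, 2, and 3 the glial sum was 2470, 2040, and 1590 CPM in AD heads and 2250, 2160, and 1670 CPM in WT heads. The sum of 5 glial markers was lower at day 30 as well (930 to 1260 CPM against 1590 to 2470 CPM in AD heads, and 1090 to 1250 CPM against 1670 to 2250 CPM in WT heads). The sum of 5 neuronal markers was 1520, 1460, and 1890 CPM in AD heads at day 30, against 1890, 3030, and 2730 CPM at day 3, and 2240, 2130, and 2130 CPM in WT heads at day 30, against 2280, 2980, and 2450 CPM at day 3. The part of these tissues in the changes of *Sod2*, *Sod3*, and *cnc* was not tested.

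*Sod1*, the abundant cytosolic copper/zinc enzyme, did not pass the test on any day. It was at 467, 474, and 462 CPM in AD heads at day 30, all below the 603, 486, and 608 CPM at day 3, and the change was -0.27 ± 0.14 on the log2 scale (edgeR FDR 0.179). WT heads had 454, 522, and 444 CPM at day 30, against 506, 484, and 638 CPM at day 3, and the change was -0.20 ± 0.14 (FDR 0.407).

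*Cat*, the peroxisomal enzyme that removes hydrogen peroxide, had a mean of 325 CPM at day 3, 276 CPM at day 10, 291 CPM at day 20, and 376 CPM at day 30 in AD heads, and of 324 CPM, 275 CPM, 267 CPM, and 322 CPM on the same days in WT heads. In AD heads it was at 408, 364, and 356 CPM at day 30, against 445, 277, and 253 CPM at day 3, the first of these in the smaller library set. The day 30 change in AD heads was 0.21 (edgeR FDR 0.395). Without AD day 3 replicate 1 it was 0.48 (FDR 0.0137), and within the larger set it was 0.48 (FDR 0.00436), so whether *Cat* passed was decided by that 1 library. In WT heads the day 30 change was -0.01 (FDR 0.989).

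The thioredoxin genes changed little. *Trx-2*, a cytosolic thioredoxin that passes electrons to peroxiredoxins, had group means of 277 to 313 CPM in AD heads and 269 to 289 CPM in WT heads, and its log2 fold changes against day 3 were between -0.06 and 0.12. *Trxr-1*, which reduces thioredoxin with NADPH, was at 333, 339, and 349 CPM in AD heads at day 30, above the 288, 302, and 270 CPM at day 3. Its change of 0.25 ± 0.13 did not pass (edgeR FDR 0.175). It passed with the library set as a covariate (0.31, FDR 0.0317) and no longer did when the library labelled AD day 30 replicate 3 was also left out (0.27, FDR 0.101). WT heads had 287, 304, and 308 CPM at day 30, against 297, 332, and 299 CPM at day 3 (-0.05, FDR 0.868). *Trxr-1* shares 435 exonic bases with *sni* on the opposite strand, and a library kit that keeps no strand cannot separate the reads of the pair, so its values carry that uncertainty. Its expected counts were not whole numbers in 21 of 24 libraries, which means that some fragments were divided between genes.

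The subunits of glutamate-cysteine ligase, which makes the first step of glutathione synthesis, showed no change with age that passed the test. *Gclc* had group means of 76.7 to 86.4 CPM in AD heads and 69.8 to 74.7 CPM in WT heads, and *Gclm* of 104 to 116 CPM in AD heads and 106 to 111 CPM in WT heads. The spread inside groups was wide and followed the library set. At day 3 *Gclm* was at 57.3, 111, and 147 CPM in AD heads and at 56.3, 118, and 148 CPM in WT heads, the lowest of each in the smaller set. *Gclc* went the other way, with 96.8, 83.0, and 61.0 CPM in AD heads and 86.3, 79.1, and 58.1 CPM in WT heads. The standard error of an age change was accordingly 0.33 for *Gclm* and 0.22 for *Gclc* on the log2 scale, against 0.13 for *Trxr-1* and *Trx-2*, so a change of *Gclm* had to be larger to be called.

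*cnc*, the Nrf2 ortholog, was the 1 gene of the 10 that rose with age by this test. In AD heads it was at 103, 139, and 190 CPM at day 3, at 182, 202, and 239 CPM at day 10, at 197, 253, and 261 CPM at day 20, and at 198, 200, and 243 CPM at day 30. Its level in WT heads was 110, 154, and 163 CPM at day 3, 185, 182, and 236 CPM at day 10, 176, 222, and 211 CPM at day 20, and 217, 232, and 231 CPM at day 30. All libraries of days 20 and 30 lay above those of day 3 in both genotypes, in AD heads by a narrow margin set by AD day 3 replicate 3.

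The log2 fold change of *cnc* in AD heads was 0.72 ± 0.20 at day 20 (edgeR FDR 0.0177) and 0.57 ± 0.20 at day 30 (FDR 0.0422). The same gene changed in WT heads by 0.67 ± 0.20 at day 30 (FDR 0.0324) and 0.51 at day 20 (FDR 0.123, or 0.0115 with the replicate block). At day 10 it was 0.53 in AD heads (FDR 0.143, or 0.0135 with the block) and 0.50 in WT heads (FDR 0.205, or 0.0333 with the block). Within the larger set the day 10 change was 0.42 in AD heads (FDR 0.278) and 0.41 in WT heads (FDR 0.336). The day 30 call in AD heads was the least stable. It was lost without the library labelled AD day 30 replicate 3 (0.46, FDR 0.171), without AD day 3 replicate 1 (0.36, FDR 0.229), without AD day 3 replicate 2 (0.52, FDR 0.15), and without AD day 30 replicate 1 (FDR 0.0848) or 2 (FDR 0.074), and it held without AD day 3 replicate 3 (0.81, FDR 0.00698). Within the larger set it was 0.35 (FDR 0.0848). The WT call at day 30 was lost without any 1 library other than WT day 3 replicate 3 (FDR 0.0543 to 0.163) and was 0.51 within the larger set (FDR 0.0331). The AD call at day 20 was lost without AD day 3 replicate 1 (FDR 0.116) or replicate 2 (FDR 0.078), or AD day 20 replicate 2 (FDR 0.0684) or replicate 3 (FDR 0.0792), and within the larger set it was 0.62 (FDR 0.0235).

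*cnc* lies on chromosome 3R (23185580 to 23226711 of the release 6 genome) with 16 annotated transcripts, and *Keap1* on the same arm (17073942 to 17079945) with 3. The mean transcript length that RSEM estimated for *cnc* was 4389 to 4578 bases in the smaller library set and 3812 to 4166 bases in the larger set. The mix of *cnc* transcripts as estimated thus differed between the sets, and the counts do not tell the CncC isoform from the rest. *cnc* also shares 63 exonic bases with *Irk1* and with *CG46310* on the opposite strand.

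*Keap1*, the adaptor that brings CncC to a ubiquitin ligase, had the lowest counts of the 10 (160 to 652 per library). It was at 21.9, 21.3, and 27.5 CPM in AD heads at day 30, against 19.5, 14.7, and 17.9 CPM at day 3. *Keap1* in WT heads was at 19.2, 18.5, and 23.7 CPM at day 30, against 17.0, 15.4, and 17.0 CPM at day 3. Every day 30 library lay above every day 3 library of its genotype, with the highest in the library labelled AD day 30 replicate 3. The log2 fold change was 0.44 ± 0.16 in AD heads (edgeR FDR 0.0522) and 0.31 ± 0.16 in WT heads (FDR 0.222). In AD heads it passed within the larger set (0.51, FDR 0.0266) and with the library set as a covariate (0.50, FDR 0.0154), and without the library labelled AD day 30 replicate 3 it was 0.30 (FDR 0.244). Across the 10 genes, 6 of the 10 did not overlap between day 30 and day 3 in AD heads and 3 of the 10 in WT heads, where 36.0% and 33.1% of all genes did not overlap.

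**Figure D2:**
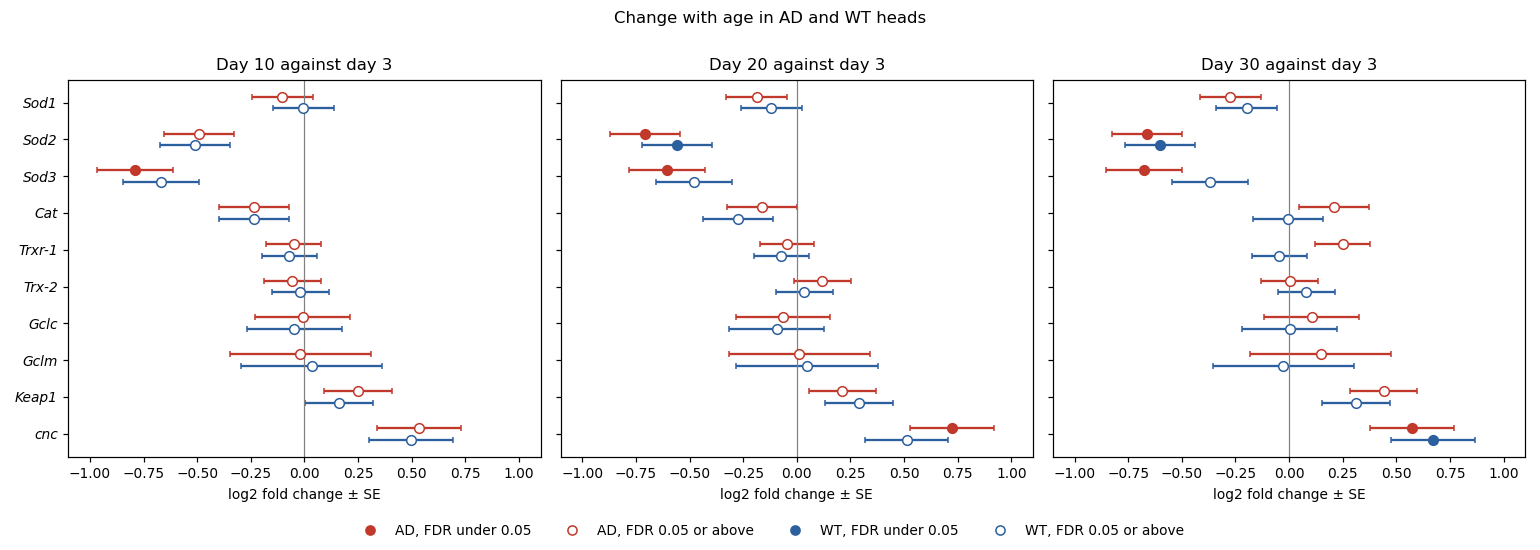
Log2 fold change ± SE of each gene (horizontal axis) on days 10, 20, and 30 against day 3, with AD in red above WT in blue and filled points where the edgeR FDR was under 0.05. *Sod2* lay at -0.66 in AD and -0.60 in WT heads at day 30, *cnc* at 0.57 and 0.67, and the error bars of AD and WT overlapped for most genes.

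The second question was whether AD heads differed from WT heads of the same age. None of the 10 genes passed the test on any day, and none had an unadjusted p under 0.05. With DESeq2 and with limma the count was also 0 on all 4 days, at the adjusted and at the unadjusted threshold. At day 30 an unadjusted p under 0.05 was reached by 3 of the 10 genes when only the groups compared were fitted and by 1 within the larger library set, with 0 past the adjusted threshold in each. Of all tested genes, 0.0286% passed on day 3, 0.21% on day 10, 0.153% on day 20, and 0.0286% on day 30, so a call was rare for any gene. The log2 fold changes of AD against WT were between -0.11 and 0.19 on day 3, between -0.09 and 0.17 on day 10, between -0.16 and 0.22 on day 20, and between -0.12 and 0.22 on day 30. The median over the 10 genes was 0.04, 0.02, 0.03, and 0.07 on days 3, 10, 20, and 30, against 0.00, -0.01, 0.00, and 0.00 over all genes. The standard errors of these differences were 0.13 to 0.33, so differences as small as those seen here were not detectable with 3 libraries a group, and a missing call does not show that the genotypes were alike.

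At day 30, 3 of the 10 genes did not overlap between AD and WT heads, where 24.2% of all genes did not, and on days 3, 10, and 20 all 10 overlapped, where 3.58%, 6.49%, and 8.91% of all genes did not. *Cat* was at 408, 364, and 356 CPM in AD heads and at 344, 304, and 319 CPM in WT heads (log2 fold change 0.22 ± 0.16, edgeR FDR 0.853). *Trxr-1* was at 333, 339, and 349 CPM in AD heads and at 287, 304, and 308 CPM in WT heads (0.18 ± 0.13, FDR 0.836). *Sod3* was at 70.7, 66.9, and 71.3 CPM in AD heads and at 72.2, 76.7, and 78.2 CPM in WT heads (-0.12 ± 0.18, FDR 1). None of the 3 passed the test. Without the library labelled AD day 30 replicate 3 the difference was 0.26 for *Cat*, 0.17 for *Trxr-1*, and -0.13 for *Sod3*, and none passed. The neuronal marker sum of every AD library at day 30 (1460 to 1890 CPM) also lay below that of every WT library (2130 to 2240 CPM), and its part in these differences was not tested.

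*Sod2* and *cnc*, which changed with age, held the lowest and the highest AD against WT difference of the 10 genes at day 20, and neither passed. The mean of *Sod2* at day 20 was 131 ± 24.1 CPM in AD heads and 146 ± 21.4 CPM in WT heads (log2 fold change -0.16, edgeR FDR 1), and that of *cnc* was 237 ± 34.9 CPM in AD heads and 203 ± 24.2 CPM in WT heads (0.22, FDR 1). The mean of *Sod2* at day 30 was 135 ± 4.9 CPM in AD heads and 142 ± 11.8 CPM in WT heads (SD, n = 3 each), and at day 3 it was 213 ± 18.2 CPM in AD heads and 216 ± 9.51 CPM in WT heads. The mean of *cnc* at day 30 was 214 ± 25.4 CPM in AD heads and 227 ± 8.07 CPM in WT heads, and at day 3 it was 144 ± 43.6 CPM in AD heads and 142 ± 28.4 CPM in WT heads. With all libraries, *Keap1* had its largest gap at day 30, with 23.6 ± 3.39 CPM in AD heads and 20.4 ± 2.82 CPM in WT heads (log2 fold change 0.20). Without the library labelled AD day 30 replicate 3 the day 30 difference of *Keap1* was 0.08, below its 0.16 at day 10.

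**Figure D3:**
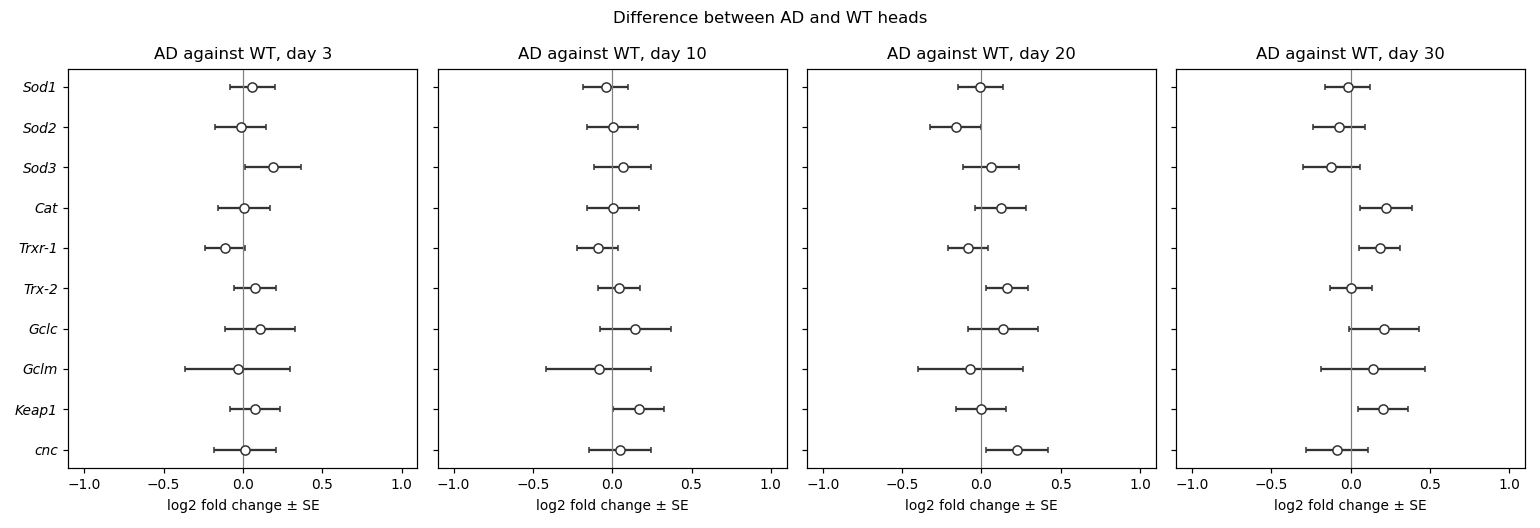
Log2 fold change ± SE of AD over WT heads (horizontal axis) for each gene, 1 panel a day. Open points mark an edgeR FDR of 0.05 or above, which holds for all points, and all lie between -0.16 and 0.22.

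The third question was whether the change with age differed between the genotypes. For none of the 10 genes did it pass in a joint test over days 10, 20, and 30 (edgeR, unadjusted p of 0.336 to 0.99, FDR 1 for each gene), in which 0.0191% of all genes passed, and DESeq2 and limma called none. For day 30 alone the smallest unadjusted p was 0.119, for *Trxr-1*, whose log2 fold change from day 3 was higher by 0.30 ± 0.18 in AD than in WT heads. *Sod3* fell in AD heads and did not pass in WT heads, but the difference between the genotypes, -0.31 ± 0.25 at day 30 (edgeR FDR 1), did not pass, so the fall is not shown to differ.

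Several of the 10 genes differed in level between the library sets, as did a similar share of all genes. In a fit with the set as a covariate, 6 of the 10 genes differed between the smaller and the larger set, where 49.2% of all genes did. *Gclm* was lower in the smaller set, with a log2 difference of -0.77 ± 0.11 (edgeR FDR 1.7e-05), below both libraries of the larger set in 6 of 6 groups. *Gclc* was higher there by 0.45 ± 0.08 (FDR 0.000228), above both in 6 of 6 groups. *cnc* (-0.39 ± 0.08, FDR 0.000648) and *Sod2* (-0.27 ± 0.08, FDR 0.00712) were lower in the smaller set, while *Cat* (0.22, FDR 0.0336) and *Trxr-1* (0.17, FDR 0.0303) were higher. The subunits of 1 enzyme thus differed between the sets in opposite directions, and their FPKM ratio differed with them. The expected counts of *Sod2*, *Gclc*, and *Gclm* were not whole numbers in these 6 libraries and whole in the other 18. With the set as a covariate *Sod2*, *Sod3*, and *cnc* passed at days 10, 20, and 30 in AD heads, where *Trxr-1* and *Keap1* also passed at day 30. In WT heads *Sod2* and *cnc* passed on the same days, and *Sod3* passed at day 10 (-0.655, FDR 0.0313). Without the library labelled AD day 30 replicate 3 the AD call of *cnc* at day 30 was lost (0.35, FDR 0.07), as were those of *Trxr-1* and *Keap1*. Day 30 libraries existed only in the larger set, and since the sets differ in replicate number, depth, and gene models at once, these cannot be told apart.

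**Figure D4:**
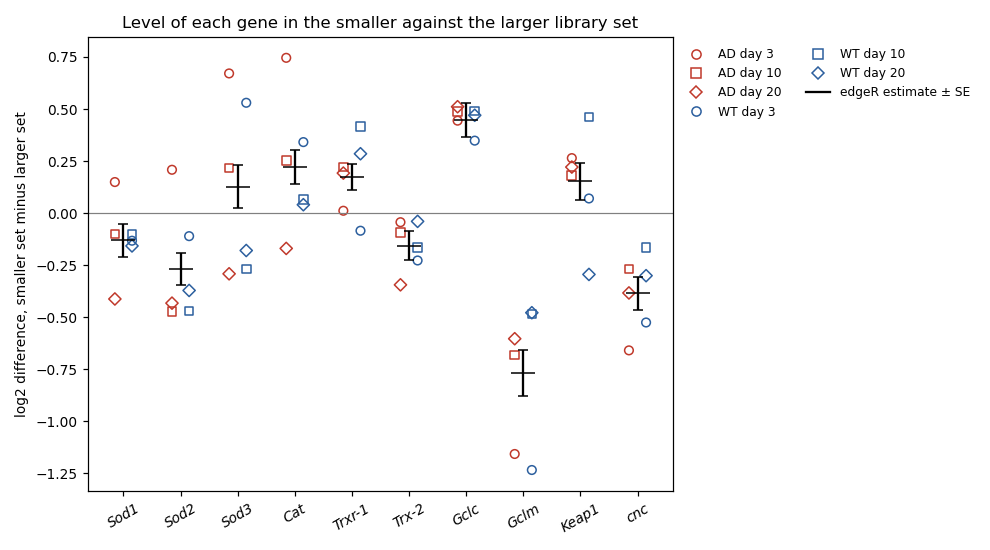
Log2 level in the library of the smaller set minus the mean of both libraries of the larger set, for each gene (horizontal axis) and each of the 6 groups that hold both sets, with AD groups in red and WT groups in blue, and the edgeR estimate ± SE as black bars. All 6 points of *Gclm* lie between -1.24 and -0.48, and all 6 of *Gclc* between 0.35 and 0.51.

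Further genes of the same pathways were grouped in 4 lists: 14 peroxidases and other thioredoxins (11 tested), 8 genes of glutathione and NADPH supply (7 tested), 7 reported targets of CncC in flies, and 7 partners and regulators of CncC and Keap1. The lists were drawn from general knowledge, but with earlier results of these data known. At day 30 against day 3 in AD heads, where 10.2% of all genes rose and 11.7% fell, 1 peroxidase or thioredoxin rose and 2 fell, 2 glutathione and NADPH genes rose and 1 fell, 4 CncC targets rose and 0 fell, and 0 partners rose and 1 fell. The median log2 fold changes of the lists were 0.27, 0.04, 0.54, and -0.17 in that order, against 0.01 over all genes. In WT heads, where 4.52% of all genes rose and 6.63% fell, the counts of genes that rose and fell were 0 and 1, 1 and 1, 1 and 0, and 0 and 0, with medians of 0.02, -0.16, 0.30, and -0.01, against -0.01 over all genes. The comparisons of AD and WT ages rest on separate libraries, and the difference between them was not tested for these lists.

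Of the peroxidases and thioredoxins, *Prx5* and *Prx3* fell and *Prx4* rose in AD heads. *Prx5*, present in mitochondria and in other compartments, was at 203, 212, and 205 CPM in AD heads at day 30, against 365, 370, and 378 CPM at day 3, and its log2 fold change was -0.84 ± 0.20 (edgeR FDR 0.00545). The WT change was -0.62 (FDR 0.0499, and 0.0626 without the library labelled AD day 30 replicate 3, which enters the shared fit). *Prx3*, the mitochondrial peroxiredoxin related to mammalian PRDX3, changed by -0.43 ± 0.12 in AD heads (FDR 0.0139) and by -0.31 in WT heads (FDR 0.0983), and at day 20 it passed in both, with -0.40 in AD heads (FDR 0.0264) and -0.45 in WT heads (FDR 0.0298). *Prx4*, a peroxiredoxin of the secretory pathway, rose in AD heads by 0.89 ± 0.28 (FDR 0.0257) and did not pass without the library labelled AD day 30 replicate 3 (0.81, FDR 0.0846).

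Among the genes that supply reducing power, *Men-b*, a malic enzyme that makes NADPH, had the clearest change. It was at 145, 137, and 141 CPM in AD heads at day 30, against 374, 345, and 264 CPM at day 3 (log2 fold change -1.21 ± 0.13, edgeR FDR 5.95e-06). In WT heads it was at 170, 167, and 169 CPM at day 30, against 355, 365, and 276 CPM at day 3 (-0.98 ± 0.13, FDR 0.000111). The glutathione synthetase *Gss1*, which completes what Gclc and Gclm begin, rose by 0.61 ± 0.13 in AD heads (FDR 0.00288) and by 0.42 in WT heads (FDR 0.0426, or 0.0524 without the library labelled AD day 30 replicate 3). Its neighbour *Gss2* rose by 0.57 in AD heads (FDR 0.0335), a call also lost without that library (FDR 0.0626).

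Of the reported CncC targets, *ref(2)P*, the fly p62 that links Keap1 to autophagy, rose with age in AD heads by 0.54 ± 0.11 (edgeR FDR 0.00188) and in WT heads by 0.38 ± 0.11 (FDR 0.0318). The glutathione S-transferase *GstD1*, a common readout of CncC activity in flies, was at 523, 481, and 551 CPM in AD heads at day 30, against 346, 267, and 370 CPM at day 3 (0.66 ± 0.18, FDR 0.0128). WT heads had 375, 411, and 426 CPM at day 30, against 300, 292, and 395 CPM at day 3 (0.30, FDR 0.306). *GstD2* was at 15.9, 12.6, and 27.5 CPM in AD heads at day 30, against 1.82, 0.782, and 2.04 CPM at day 3 (3.58 ± 0.74, FDR 0.00209). In WT heads *GstD2* was at 3.74, 5.71, and 6.27 CPM at day 30, against 3.78, 1.1, and 2.12 CPM at day 3 (1.14, FDR 0.305), and the groups overlapped. Without the library labelled AD day 30 replicate 3, all 4 targets called in AD heads still passed, *GstD1* with an FDR of 0.0478. *GstD1* and *GstD2* belong to a cluster of similar genes among which fragments could be divided.

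Between the genotypes, *Cyp6a2*, a cytochrome P450 of insecticide resistance, was higher in AD heads on all 4 days. It was the 1 gene of the 4 lists that passed in the edgeR fit of all 24 libraries without a covariate or block. It was at 59.5, 39.6, and 40.5 CPM in AD heads at day 3, against 3.44, 3.85, and 1.36 CPM in WT heads (log2 fold change 3.99, edgeR FDR 0.00938). At day 30 it was at 40.6 and 33.1 CPM in AD replicates 1 and 2 and at 3.02 CPM in the library labelled AD day 30 replicate 3, against 1.91, 2.96, and 2.29 CPM in WT heads (3.42, FDR 0.0471). Without that library the day 30 value was 3.95 (FDR 4.52e-06). The difference was present at day 3, and its cause was not tested. The target *ref(2)P* was at 409, 379, and 437 CPM in AD heads at day 20, against 298, 281, and 277 CPM in WT heads, and every AD library lay above every WT library. Its log2 fold change of 0.52 ± 0.11 did not pass (edgeR FDR 0.0841). It passed with the replicate block (FDR 0.0206), where same-numbered libraries deviated together, and also with the library set as a covariate (FDR 0.0171), with DESeq2 (FDR 0.00057), and without the library labelled AD day 30 replicate 3 (FDR 0.0431). Of the regulators, *sgg*, the fly GSK-3 kinase, was at 210, 230, and 315 CPM in AD heads at day 30, against 400, 361, and 371 CPM in WT heads (-0.58, FDR 0.143). The highest AD value was in the library labelled AD day 30 replicate 3, and without it the difference passed (-0.78, FDR 0.0113), as it did with the set as a covariate (FDR 0.0264) and with DESeq2 (FDR 0.0026). The neuronal marker sum was lower in these AD libraries too, as given above. Against day 3 *sgg* fell in AD heads (-0.68 ± 0.14, FDR 0.00171) and changed by -0.08 in WT heads (FDR 0.752).

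**Figure D5:**
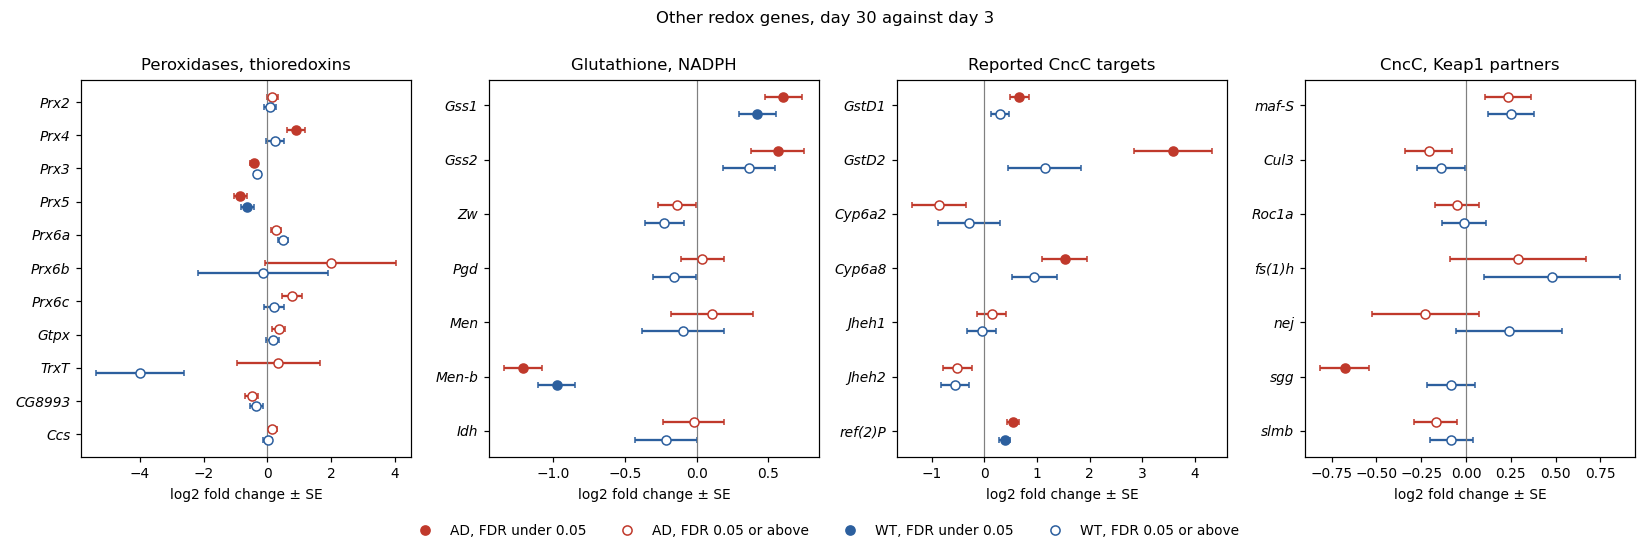
Log2 fold change ± SE at day 30 against day 3 (horizontal axis, a different scale in each panel) for the 32 tested genes of the 4 lists, with AD in red above WT in blue and filled points where the edgeR FDR was under 0.05. *Men-b* lies at -1.21 in AD and -0.98 in WT heads and *GstD2* at 3.58 in AD heads.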

How the data were processed

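The authors filtered the reads with SOAPnuke, mapped them with HISAT2 2.0.4 to the release 6 genome, and estimated gene levels with RSEM, for which the labels also name Bowtie2. The deposited values are the expected counts (estimates per gene, not normalised), the FPKM and a transcript length that the authors' RSEM run gave for each gene and library. Only genes above 0 were listed, so an absent gene was set to 0. The gene models that the authors added were not used, apart from their lengths, which marked the library sets. The 10 genes and all lists were chosen with earlier results of these data known.

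Symbols were matched for 13550 of 13700 identifiers. Expected counts were rounded to whole numbers. The fit used edgeR 4.0.16 under R 4.3.3 (TMM normalisation, filterByExpr, quasi-likelihood test, 8 groups, no covariate, Benjamini-Hochberg FDR under 0.05 over 10479 genes). Standard errors came from the estimate and its F statistic, and CPM are TMM-normalised. The study used DESeq2 with an FDR limit and an absolute log2 fold change over 1. Here DESeq2 1.42.0 and that fold limit were alternatives, and limma 3.58.1 on log2(FPKM + 1) and log2(FPKM + 0.1) was another. The fits were tested on simulated counts. Tables were made in Python 3.11.15.

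Every one of the 10 genes is reported, and of each pathway list at most 3 genes past the test in a comparison, lowest FDR first. *sgg* and *ref(2)P* between genotypes were named after their values were seen. The replicate numbers of the labels were checked for pairing. Every same-numbered pair correlated above 0.1 in the deviations from the group means for AD against WT at days 10 and 20, and for day 10 against day 3 in both genotypes and day 20 against day 3 in WT heads (mean correlation 0.279 to 0.555). For the results of these comparisons that are reported above, the blocked values are given where they change a call. Replicate 1 of those days came from the smaller library set, whose part in the correlation was not tested. Differences between replicates exceeded sampling noise in all 24 pairs (chi-square per gene 9.52 to 431), so each library counted as 1 replicate. Amplified libraries without molecular identifiers carry more error than counting alone.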

Additional observations from a re-analysis of the deposited data

How the results depend on the processing

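Between AD and WT heads, and in the test of the difference in ageing, 0 of the 10 genes passed under every alternative tried. At day 30 against day 3, the count in AD heads was 3 and became 1 with only the groups compared. It was 2 without a filter on low counts, with genes kept at a mean of at least 10 counts, or with limma at either pseudocount. Within the larger library set it was 4 (*Cat*, *Sod2*, *Sod3*, and *Keap1*). The AD count became 5 with the library set as a covariate and 0 with a fold limit of 1 on the log2 scale. In WT heads the count was 2 and became 0 with that fold limit. Over days 10 and 20 together, the AD count of gene-by-day calls was 4 and became 0 with only the groups compared or with the fold limit, 2 within the larger library set, 3 with limma at either pseudocount, 5 with DESeq2, and 6 with the library set as a covariate. The WT count was 1 and became 0 without a filter on low counts, with only the groups compared, or with the fold limit, 2 with limma at either pseudocount, 3 with DESeq2, and 5 with the library set as a covariate. Taking the replicate number as a block, for all comparisons together, gave 4 at day 30 in AD heads, 2 in WT heads, 6 over days 10 and 20 in AD heads, and 5 in WT heads. At day 30 the numbers did not pair the libraries (correlations -0.121 to 0.0462). Between genotypes at day 3 every library correlated best with its own number (3 of 3), but 1 pair was at 0.0882. Leaving out 1 library gave 2 to 3 calls at day 30 in AD heads, 0 to 2 in WT heads, 1 to 5 over days 10 and 20 in AD heads, 0 to 2 in WT heads, and 0 to 0 in the genotype and ageing-difference tests. With only the groups compared, *Sod2* was the 1 gene called at day 30 in AD heads, and limma did not call *Sod3* in AD heads on any day (FDR 0.122 to 0.22). The called fold changes of *Sod2*, *Sod3*, and *cnc* kept their sign under these alternatives. Some changes that were not called did not, such as that of *Gclm* at day 30 in AD heads. It was 0.15, but -0.03 with the library set as a covariate and -0.18 within the larger set. The fold limit aside, *Sod2* in AD heads at day 30 passed under 12 of 12 alternative fits. *cnc* at day 30 passed under 12 of 12 in WT heads and under 6 of 12 in AD heads. With the fold limit neither gene passed. Of these alternatives, leaving out the library labelled AD day 30 replicate 3 together with the set covariate or the larger set was chosen after seeing the data, and gave 2 and 3 calls at day 30 in AD heads. The cause of these shifts was not tested. *Keap1*, with the fewest counts, had a standard error of 0.16 on the log2 scale between genotypes, no larger than that of *Sod2* (0.16).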
